A study of Canis lupus familiaris with 12 samples.

Results

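MicroRNA precursor loci are the short stretches of genome, annotated as gene models of their own, from which microRNAs are cut. In the hippocampal table of a study in Beagle dogs, 249 of 31158 gene models carried a microRNA symbol (MIR with a number, or MIRLET for the let-7 family, leaving out host genes), and 113 of these had at least 10 reads summed over the 6 hippocampal libraries. Those 113 loci are described here; the other 136 had fewer reads. Reads were recovered from the deposited values, which are RPKM (reads scaled to the length of the gene model and to the assigned reads of the library). The members were thus chosen by their read counts over both arms together, and levels are given as description only. The comparison of treated with control dogs was not used in the choice.

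The treated dogs had rapid atrial pacing for 2 weeks, in which the atria are driven electrically at a high rate to induce atrial fibrillation, and the control dogs had a sham operation. Each arm had 3 hippocampal libraries, made from TRIzol-extracted RNA with a stranded mRNA kit, and 3 libraries of microRNA from exosomes of the epicardial fat of the left atrium, 12 samples in all. The labels do not say that the 3 samples of an arm came from separate dogs, so p-values measure only the spread between these samples. The labels give no age and do not link a hippocampal to an exosome sample.

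A microRNA is transcribed as part of a longer primary transcript, often within an intron of another gene, cut by Drosha in the nucleus, exported, and cut by Dicer to the short mature strand that an Argonaute protein carries to its targets. The mature strand has no poly(A) tail, and reads over a precursor in an mRNA library therefore come from the primary transcript, its host, or any other transcript that crosses the locus. Hippocampal neurons are known for miR-9, miR-124, miR-128 and miR-138, oligodendrocytes for miR-219, and red blood cells for miR-144 and miR-451. The strand setting of the read counting and its handling of overlapping gene models are not stated, so reads of a locus, of an overlapping gene and of a transcript on the other strand cannot be told apart.

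The hippocampal libraries held between 35003483 and 51789497 assigned reads, and the exosome libraries between 12159 and 25171 listed reads. All 12 neuron markers looked up were listed, with summed levels of 1572 to 2645 RPKM per library. Sham replicate 2 stood apart in its cell markers: it had the lowest neuron marker sum, the highest oligodendrocyte marker sum (2976 RPKM against 1183 to 2037 in the other libraries) and the highest choroid plexus marker sum (458 RPKM against 6.52 to 160). Nearly all of that choroid plexus sum was TTR, at 449 RPKM. FOLR1, KCNJ13, OTX2 and F5 were also highest in sham replicate 2, KL and KCNE2 were lowest there, and CLIC6, AQP1 and SLC4A5 were neither. In bulk tissue, fewer cells of a type and less RNA per cell cannot be told apart.

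The 113 loci together held 99235 reads, and a few of them held most of these. MIR8819 and MIR8858 had 53.5% of the reads, the 12 loci with most reads had 88.1%, and the other 101 loci shared 11.9%. Reads were found in every library for 93 loci, but 57 loci had fewer than 50 reads in all and 38 had 100 or more. At the threshold, MIR186 had 10 reads and MIR325, MIR874, MIR8807 and MIR98 had 11, while MIR1836, MIR8875 and MIR8907, with 9, were just outside.

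**Figure D1:**
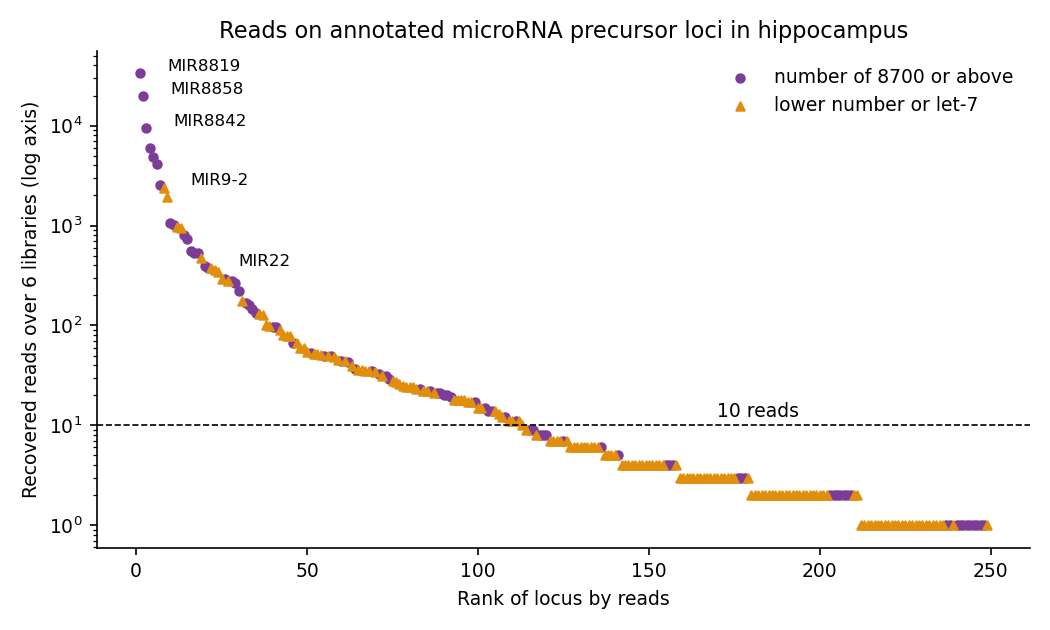
Recovered reads over the 6 hippocampal libraries (y, log axis) for each of the 249 annotated microRNA loci in order of reads (x); circles are loci numbered 8700 or above, triangles are lower numbers and let-7, and the dashed line is the threshold of 10 reads. MIR8819, at 33372 reads, is the highest, and the 6 loci with most reads are all numbered 8700 or above.

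The reads lay mainly on dog microRNAs with high numbers. Of the 84 loci numbered 8700 or above, 50 reached 10 reads and they held 89.3% of the reads of the 113. None of these 50 had an entry under its name in the exosome table. Their annotated precursors were 95 to 145 bp long, with a median of 134 bp. The 165 loci with lower numbers or let-7 names gave 63 members with 10.7% of the reads, and 41 of them had an exosome entry. Their precursors were 52 to 141 bp long, with a median of 66 bp.

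The share of all assigned reads that fell on the 113 loci, given on a per-million scale (RPM), was 344, 327 and 339 RPM in the pacing libraries and 330, 565 and 364 in the sham libraries. The means were 337 ± 8.60 and 420 ± 127 RPM (SD, n = 3 each). The arms overlapped, and sham replicate 2 was the highest library. Without MIR8819 and MIR8858 the shares were 167 ± 3.75 and 190 ± 29.7 RPM, again overlapping. The loci with lower numbers and let-7 had 39.3 ± 1.16 RPM in pacing and 42.7 ± 4.10 in sham.

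The locus with most reads, MIR8819, lies on chromosome 26 at positions 14526313 to 14526457 (assembly CanFam3.1, as are all positions here), and 58 of its 145 bp lie in an exon of PEBP1 on the same strand. PEBP1 encodes a phosphatidylethanolamine-binding protein that is abundant in brain. MIR8819 had 977, 916 and 884 RPKM in pacing and 964, 668 and 1000.2 RPKM in sham. PEBP1 itself had 920, 900 and 797 RPKM in pacing and 898, 620 and 910 RPKM in sham. Both were lowest in sham replicate 2, and the arms overlapped for both. The difference for MIR8819, pacing minus sham, was 0.10 ± 0.17 (SE) on the log2(RPKM + 1) scale, with an adjusted p of 0.874 by limma. How many of its reads belong to the PEBP1 transcript was not tested.

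MIR8858, on chromosome 18 at positions 51707336 to 51707474, had the second most reads. It lies 5290 bp past the end of the gene model LOC111091003 on the same strand. It had 286, 200 and 289 RPKM in pacing and 237, 1819 and 150 RPKM in sham. Sham replicate 2 alone held 13091 of its 19765 reads, and the other 5 libraries had 763 to 1725. The log2 difference of MIR8858 was -0.66 ± 0.83 (SE; limma adjusted p = 0.819) and turned to 0.43 without sham replicate 2.

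MIR8842, on chromosome 17 at positions 51412614 to 51412714, lies over 20 kb from any other listed gene model, PAIP2B being 23650 bp away. It had 266, 298 and 304 RPKM in pacing and 186, 635 and 483 RPKM in sham. The arms overlapped because sham replicate 1 was the lowest of all libraries and the other two sham libraries were the highest. Its log2 difference was -0.41 ± 0.41 (SE; limma adjusted p = 0.763), and -0.05 without sham replicate 2. Over all 15 alternative settings it ran from -0.94 to -0.05, with no change of sign. The lowest adjusted p among them, by limma or edgeR, was 0.0627.

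MIR9-2 was the most-read locus of a microRNA with a known role in brain; miR-9 is abundant in neural progenitors and neurons. It lies on chromosome 3 at positions 19997697 to 19997756, and the nearest listed gene model is MEF2C, a transcription factor gene of neurons and muscle, 49494 bp away. It had 154, 144 and 162 RPKM in pacing and 155, 165 and 148 RPKM in sham. These levels were close and overlapped, at 154 ± 9.08 and 156 ± 8.72 RPKM (SD, n = 3 each). The log2 difference was -0.02 ± 0.10 (SE; limma adjusted p = 0.951). MIR9-1, the other listed copy, had 1 read.

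Of the other 8 loci with most reads, 7 had arms that overlapped. MIR8835 had 153 ± 12.9 RPKM in pacing and 167 ± 17.3 in sham, MIR8903 had 124 ± 8.37 and 138 ± 12.6, and MIR8867 had 118 ± 17.2 and 112 ± 21.3 (SD, n = 3 each). MIR8809 stood at 67.6 ± 10.6 and 67.9 ± 7.43 RPKM, MIR632 at 71.3 ± 11.01 and 83.2 ± 10.9, MIR8872 at 36.1 ± 3.56 and 43.3 ± 8.86, and MIR568 at 41.4 ± 2.25 and 44.5 ± 13.1. MIR568 lies 5361 bp from TIGIT, a gene for a lymphocyte receptor, which had 0.0442 to 0.0777 RPKM on average in the arms. The exception was MIR8871, on chromosome 5 at positions 16420822 to 16420966, 9995 bp before the start of SIDT2 on the same strand, a gene for a lysosomal RNA-binding membrane protein. It had 32.1, 34.6 and 27.2 RPKM in pacing and 21.96, 22.2 and 25.1 RPKM in sham. All pacing libraries were above all sham libraries, with a log2 difference of 0.42 ± 0.12 (SE) that did not pass the test (limma adjusted p = 0.394). SIDT2 itself had 2.16 ± 0.204 and 2.32 ± 0.422 RPKM.

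**Figure D2:**
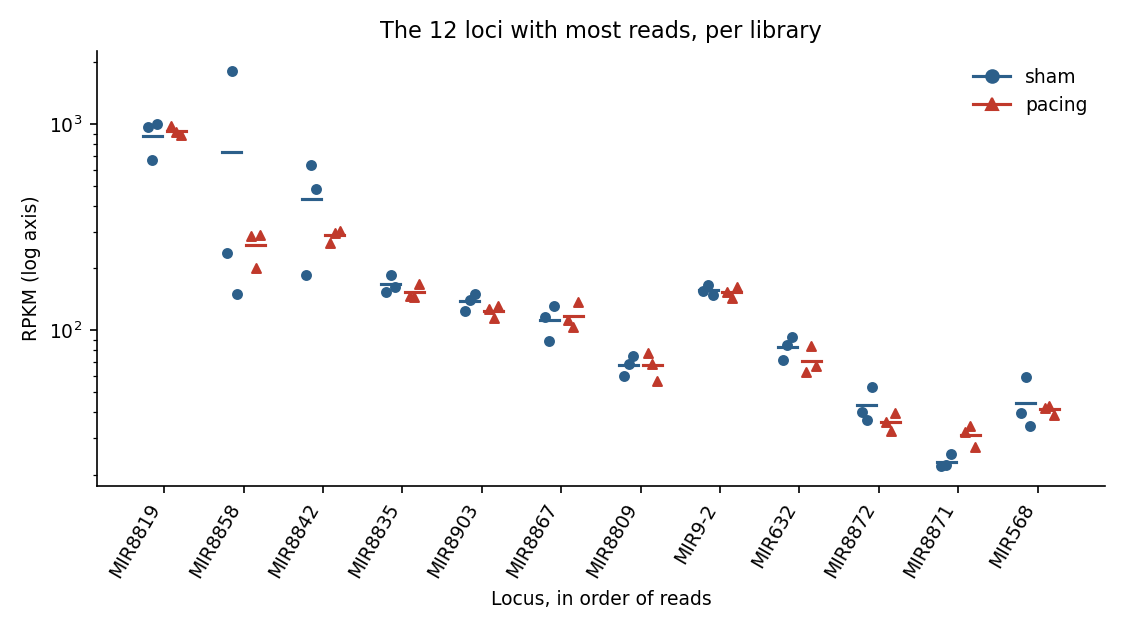
Level in RPKM (y, log axis) in each of the 6 hippocampal libraries for the 12 loci with most reads (x); circles are sham, triangles pacing, and lines the arm means. MIR8858 has a sham library at 1819 RPKM, far above its others, and MIR8871 is the locus whose arms do not overlap.

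The test of pacing against sham was fitted over the 16090 gene models with a mean of at least 0.5 RPKM, which took in 106 of the 113 loci. MIR325, MIR8803, MIR8804, MIR8807, MIR8862, MIR8900 and MIR8793-2 were below that level. None of the 106 loci passed an adjusted p of 0.05 with limma or with edgeR on the recovered reads; over all models 4 passed with limma (0.0249%) and 5 with edgeR (0.0311%). At an unadjusted p under 0.05, limma counted 23 loci, or 21.7% against a background of 9.15%, and edgeR counted 10 loci, or 9.43% against a background of 9.09%. With limma, 10 of these were higher (background 2.85%) and 13 lower (background 6.3%), and with edgeR 4 were higher (background 3.63%) and 6 lower (background 5.46%). The arms did not overlap for 18 loci (17.0%; background 16.2%), 7 higher in pacing (background 4.92%) and 11 lower (background 11.3%). A locus could reach 10 reads through 1 arm alone, so these counts support nothing about the loci as a class.

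The differences were above 0 for 42 loci and below 0 for 64, and over all models 41.1% were above and 58.9% below. Sham replicate 2 was the highest library for 29 of the 106, or 27.4%, against 33% of all models. The median log2 difference was -0.13 for the loci and -0.04 for all models tested. Without sham replicate 2 the medians were -0.05 and -0.03. The 50 tested loci with 10 to 49 reads had a median of -0.25 and gave 15 of the 23 unadjusted limma calls. The 26 loci with 50 to 199 reads had a median of 0.10, and the 30 loci with 200 or more had -0.11; each of these classes gave 4 calls.

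Among the loci that were higher in pacing, the 6 with the smallest p were MIR8810, MIR186, MIR8871, MIRLET7F, MIR27B and MIR1343. None passed the test, and all but MIR8871 had 50 reads or fewer over the 6 libraries. MIR8810, on chromosome 21, had 10, 8 and 9 reads in pacing and 6, 5 and 5 in sham. Its arms did not overlap, at 2.09 ± 0.283 and 1.08 ± 0.185 RPKM (SD, n = 3 each), with a limma log2 difference of 0.57 ± 0.12 (SE; adjusted p = 0.302). MIRLET7F, a let-7 locus on chromosome 1 that lies opposite an intron of LOC102153346, had 2.95, 4.07 and 3.66 RPKM in pacing and 0.770, 1.73 and 2.45 RPKM in sham. The lowest pacing library was above the highest sham library, with a limma log2 difference of 0.83 ± 0.24 (SE; adjusted p = 0.405).

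MIR27B, in an intron of LOC106559202 on chromosome 1, had 7, 4 and 6 reads in pacing and 1, 4 and 3 in sham; miR-27b is known in lipid metabolism. Its means were 2.28 ± 0.633 and 0.949 ± 0.548 RPKM and did not overlap (limma log2 difference 0.77 ± 0.25 SE, adjusted p = 0.454). The gene model around it had 13.2 ± 1.21 and 13.8 ± 3.47 RPKM. MIR186, in an intron of ZRANB2, a gene for an RNA splicing protein, had 2, 2 and 3 reads in pacing and 1 in each sham library. Its log2 difference was 0.53 by limma (adjusted p = 0.386), and ZRANB2 had 62.4 ± 2.72 and 58.6 ± 3.40 RPKM. MIR1343, in an intron of PDHX, a pyruvate dehydrogenase subunit gene, had 4, 4 and 3 reads in pacing and 3, 1 and 2 in sham. Its log2 difference was 0.39 by limma (adjusted p = 0.455).

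Among the loci that were lower in pacing, the 6 with the smallest p were MIR144, MIR8805, MIR8818, MIR302D, MIRLET7E and MIR671, and none passed the test. MIR144, MIR8818 and MIRLET7E had no read in any pacing library. MIR144 lies on chromosome 9 at positions 43031035 to 43031094, 307 bp from ERAL1, a mitochondrial ribosome assembly gene on the other strand. MIR144 had 2, 6 and 4 reads in sham, a mean of 1.47 ± 0.700 RPKM (SD, n = 3), and a limma log2 difference of -1.26 ± 0.21 (SE; adjusted p = 0.222). ERAL1 had 12.4 ± 0.815 RPKM in pacing and 11.4 ± 0.254 in sham. MIR451, the neighbour of MIR144 on the same strand, was below the threshold with 7 reads, which were 1, 4 and 2 in the sham libraries and none in pacing.

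MIR8818, on chromosome 28, had 2, 13 and 7 reads in sham, and MIRLET7E, on chromosome 1 and 669 bp before the start of SPACA6, a sperm membrane protein gene, had 2, 10 and 2. A floor of 3 reads over the pacing arm was used, with the sham reads taken as exact. The sham share of assigned reads was 6.33-fold this floor for MIR8818 and 4.03-fold for MIRLET7E. Sham replicate 2 held most reads of both, and without it the same floor gave 4.14-fold for MIR8818 and 1.84-fold for MIRLET7E. Both loci, like MIR144 and MIR8793-2, reached 10 reads through the sham arm alone. MIR8793-2 also had no read in pacing and 4 in each sham library; its level was below the filter and it was not tested. Over all loci of few reads, 4 of 40 loci with 10 to 29 reads (10%) were at 0 in pacing, against 86 of 3369 gene models with that many reads (2.55%). None of the 40 loci was at 0 in sham, against 0.564% of those models. The 4 loci at 0 in pacing passed the threshold through sham alone, so these shares support nothing about the loci as a class. Floors of this kind cover counting error in the pacing arm only, not that of the sham reads and not the spread between libraries.

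MIR8805, on chromosome 20 and 2970 bp before the start of PLK5, a gene of the polo-like kinase family, had 0.476, 0.337 and 0.197 RPKM in pacing and 1.10, 1.86 and 0.943 RPKM in sham. The arms did not overlap, and the limma log2 difference was -0.77 ± 0.17 (SE; adjusted p = 0.313). MIR671, on chromosome 16 and 440 bp from the chromatin remodelling gene SMARCD3 on the other strand, had 2.18, 1.65 and 1.54 RPKM in pacing and 2.44, 3.91 and 4.43 RPKM in sham. Every sham library was above every pacing library (limma log2 difference -0.70 ± 0.19 SE, adjusted p = 0.391). SMARCD3 overlapped between the arms, at 12.6 ± 1.69 and 14.0 ± 2.19 RPKM.

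MIR302D belongs to a cluster known from embryonic stem cells and lies with MIR367 opposite an intron of LARP7, a gene for a protein of the 7SK snRNP. MIR302D had 0.977 ± 0.290 RPKM in pacing against 1.93 ± 0.363 in sham (SD, 3 libraries each), with a limma log2 difference of -0.57 ± 0.15 (SE; adjusted p = 0.378). MIR367 stood the other way, at 1.26 ± 0.367 and 0.922 ± 0.595 RPKM, with overlapping arms. LARP7 had 83.6 ± 4.34 and 96.9 ± 17.9 RPKM, so both loci were far below the gene on the opposite strand.

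**Figure D3:**
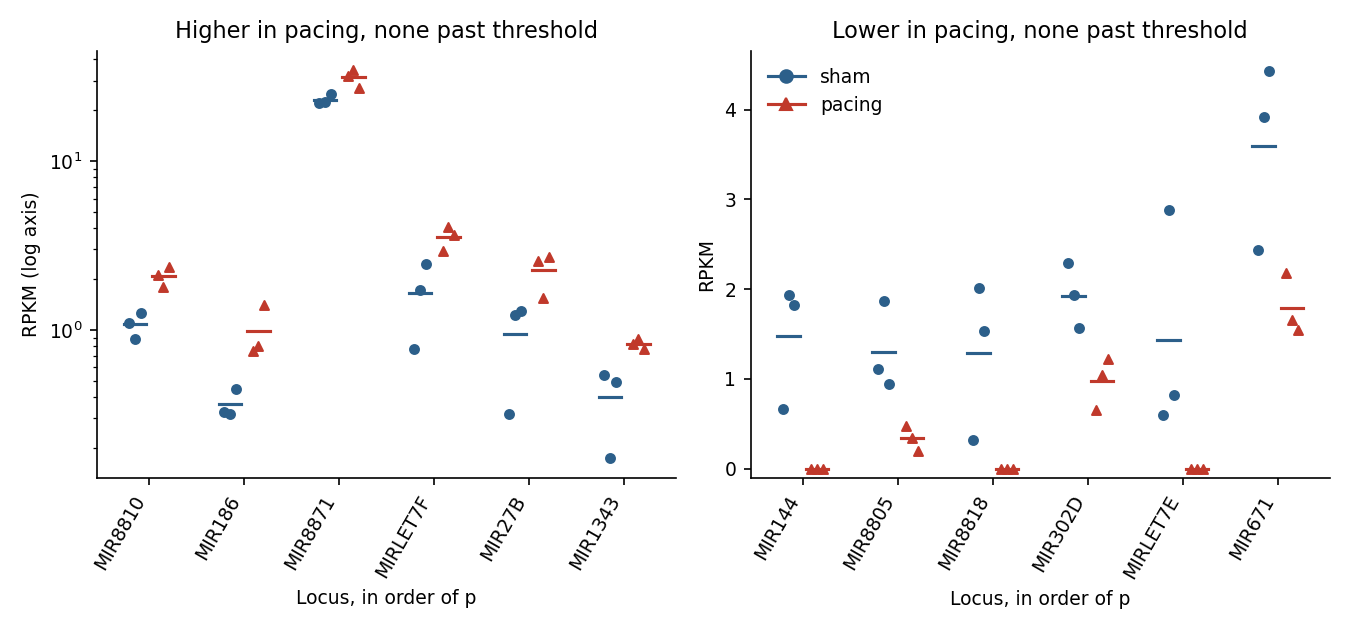
Level in RPKM of the 6 loci with the smallest p that were higher in pacing (left, log axis) and of the 6 that were lower (right, linear axis), in each hippocampal library; circles are sham, triangles pacing, and lines the arm means. The arms of all 12 loci do not overlap, MIR144, MIR8818 and MIRLET7E are at 0 in every pacing library, and none of the 12 passed the adjusted test.

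A further 6 loci, named after their values were seen, had arms that did not overlap. MIR22, at 27.2 ± 1.88 RPKM in pacing and 21.0 ± 3.91 in sham, was higher (limma adjusted p = 0.506); miR-22 is a widely expressed microRNA. MIR769, MIR8822, MIR8825, MIR1271 and MIR8821 were lower in pacing, with limma adjusted p between 0.413 and 0.582. MIR1271, for example, had 1.60 ± 0.655 RPKM in pacing and 3.18 ± 0.558 in sham.

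Of 12 listed loci of neuron-enriched microRNAs, 6 were among the 113, of which 2 were higher and 4 lower in pacing, none past the test with limma or edgeR and none at an unadjusted limma p under 0.05. Their summed level was 159 to 178 RPKM in pacing and 167 to 184 in sham, nearly all of it MIR9-2. MIR124-1 and MIR124-2, the listed copies of miR-124, a microRNA that represses non-neuronal genes in neurons, had 60 and 80 reads. MIR124-1 was at 3.97 ± 1.62 RPKM in pacing and 3.83 ± 1.41 in sham. MIR124-2 was at 3.89 ± 1.96 and 6.75 ± 3.86 RPKM, with the arms overlapping and 32 of its reads in sham replicate 2, and its limma log2 difference of -0.63 became -0.26 without that library. MIR138A, of a microRNA found at synapses, had 3, 6 and 7 reads in pacing and 14, 2 and 2 in sham. MIR137 had 28 reads and MIR7-3 had 91, and their arms overlapped too. MIR128-1, at 4 reads, was below the threshold.

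Of 7 listed loci of oligodendrocyte microRNAs, 3 were among the 113: MIR27B and the copies MIR219-1 and MIR219-2 of miR-219. Of these 2 were higher and 1 lower in pacing, with none past the test. MIR27B was the 1 at an unadjusted limma p under 0.05 (background 9.15%). It was lowest in sham replicate 1, at 0.318 RPKM, and had 1.30 in sham replicate 3. MIR219-2, on chromosome 9, had 6.02, 6.77 and 8.79 RPKM in pacing and 9.86, 10.99 and 1.26 RPKM in sham. MIR219-1, on chromosome 12 and 588 bp before the start of RING1, a Polycomb gene, had 0, 2 and 1 reads in pacing and 11, 7 and 0 in sham. For both copies sham replicate 3 was far below the other sham libraries, and in MIR219-2 it was the lowest of all 6. The summed level of 9 oligodendrocyte marker genes was also lowest in sham replicate 3, at 1183 RPKM against 1638 to 2976 in the others; the part of cell makeup in the miR-219 values was not tested. The limma log2 differences were 0.29 ± 0.59 (SE; adjusted p = 0.898) for MIR219-2, which turned to -0.04 with edgeR and to -0.49 without sham replicate 3, and -0.82 ± 0.52 (SE; adjusted p = 0.647) for MIR219-1.

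Of 9 listed loci of the let-7 family, whose members hold back the growth of developing cells, 7 were among the 113, of which 3 were higher and 4 lower in pacing, with none past the test and 2 at an unadjusted limma p under 0.05 (MIRLET7F and MIRLET7E; background 9.15%). Their median log2 difference was -0.25, against -0.04 for all models tested. MIRLET7B had 18, 8 and 2 reads in pacing and 6, 18 and 0 in sham, and it varied within an arm more than between arms. MIRLET7F and MIRLET7D lie near each other opposite introns of LOC102153346. They stood in opposite directions: MIRLET7D had 1.11 ± 0.374 RPKM in pacing and 1.74 ± 0.635 in sham, overlapping. MIRLET7G, in an intron of WDR82, had 44 reads, MIRLET7A-2 had 18 and MIR98, in an intron of HUWE1 on chromosome X, had 11.

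Loci known from other cell types were few. Of 7 listed microglial and leukocyte microRNA loci, MIR146A was the 1 among the 113, at 2, 4 and 1 reads in pacing and 5, 4 and 2 in sham; MIR223 had 6 reads and MIR155 had 2. None of the 3 endothelial loci (MIR126 had 1 read), none of the 5 choroid plexus and epithelial loci and none of the 4 loci of the miR-17 clusters reached 10 reads. MIR145, a smooth muscle and pericyte microRNA, had 4, 4 and 1 reads in pacing and 2, 1 and 1 in sham. Of 11 loci looked up for the imprinted DLK1-MEG3 cluster, MIR345 was the 1 that reached 10 reads, with 18. It starts at position 68592447 of chromosome 8, 6580 bp from SLC25A29, and so lies apart from the cluster. MIR127 and MIR432 of the cluster start at 69104938 and 69106415 and had 4 and 7 reads. No locus within the cluster reached 10 reads.

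MIR208A, a heart muscle microRNA, lies in an intron of its host MYH6, the gene of the alpha heavy chain of cardiac myosin. MIR208A had 0.667, 1.77 and 0.828 RPKM in pacing and 1.16, 7.84 and 1.59 RPKM in sham. MYH6 had 1.80, 1.70 and 2.11 RPKM in pacing and 1.92, 8.69 and 2.91 RPKM in sham. Host and locus were both highest in sham replicate 2, and the limma log2 difference of MIR208A, -0.85, became -0.21 without that library. Neither differed between the arms beyond the spread (limma adjusted p = 0.630 for MIR208A and 0.611 for MYH6).

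Red blood cell genes are given beside MIR144, since red blood cells are known for miR-144. Of 10 listed erythrocyte markers, 7 were tested, 6 of them lower and 1 higher in pacing, with none past the adjusted test, 5 at an unadjusted limma p under 0.05 (background 9.15%), and 5 with arms that did not overlap, all lower (background 11.3%). The summed level of the 10 was 11.7 to 15.4 RPKM in pacing and 19.8 to 47.6 in sham. Most of this came from 4 models without a gene symbol, which summed to 8.69 to 11.7 RPKM in pacing and 15.6 to 42.7 in sham. Each of the 4 was lower in pacing without overlap. LOC100855540 and LOC100855558 lie between LUC7L and the globin gene HBM, and LOC480784 and LOC609402 lie side by side. The 6 with a symbol summed to 3.04 to 3.70 and 4.17 to 4.87 RPKM. HEMGN, a gene of red cell precursors, had 0.932 ± 0.199 RPKM in pacing and 1.72 ± 0.230 in sham, without overlap. The arms overlapped for the other markers with a symbol. ALAS2 had 1.12 ± 0.136 RPKM in pacing and 1.46 ± 0.429 in sham, and AHSP had 0.461 ± 0.168 and 0.507 ± 0.0511. EPB42 was higher in pacing, at 0.825 ± 0.116 against 0.743 ± 0.218 RPKM. SLC4A1, the red cell anion exchanger, and HBM had 2 reads each, all in sham replicate 2. The part of blood in the MIR144 values was not tested.

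Of the 113 loci, 48 lay inside 45 other gene models on the same strand, 32 of these loci with a protein-coding host, and 46 of the 48 were intronic. The exceptions were MIR8819 and MIR8806, of which 101 of 141 bp lie in an exon of POMGNT2. A locus inside an intron can be covered by unspliced host RNA, but which transcripts the reads came from was not tested. In RPKM, 32 of the 48 loci were below their host, with a median ratio of locus to host of 0.300. MIR207 had the lowest ratio, 0.00412, in an intron of DNAJA1, a co-chaperone gene at 329 RPKM. Over the 48 loci the Spearman correlation of locus and host level was 0.11, a description across loci that share the libraries.

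In 16 cases the locus was above its host. MIR7-3 was 40.2 times above the lncRNA model LOC111091398, which had 0.0980 RPKM. MIR8867, in an intron of CYB5D1, a cytochrome b5 domain gene, was 22.3 times above it, at 115 against 5.15 RPKM. The gene model LOC111095880 also overlaps MIR8867, on the other strand. MIR8848, in an intron of ERI1, a 3' exonuclease gene, was 13.3 times above it, and MIR8887, in an intron of MIGA2, a mitochondrial fusion gene, was 4.47 times above it. MIR125B-2 was 5.11 times above the lncRNA model LOC102154980. In these loci the annotated span had more reads per length than the spliced exons of the model around it.

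Of 38 tested hosts none passed the test of pacing against sham with limma or edgeR, and 2 with limma and 3 with edgeR had an unadjusted p under 0.05 (background 9.15% and 9.09%). In 39 pairs both locus and host were tested, and 27 pairs had the same sign. Another 12 loci, without a host on their own strand, lay opposite another gene model, 7 opposite an exon and 5 opposite an intron. MIR8811, opposite an exon of STX3, a syntaxin gene, had the most reads of these, 741. MIR1837-1 and MIR1837-2, with 281 and 176 reads, are copies that lie near each other on chromosome 17, and reads could have been split between them; the same limit holds for MIR8793-2 and MIR8793-3.

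**Figure D4:**
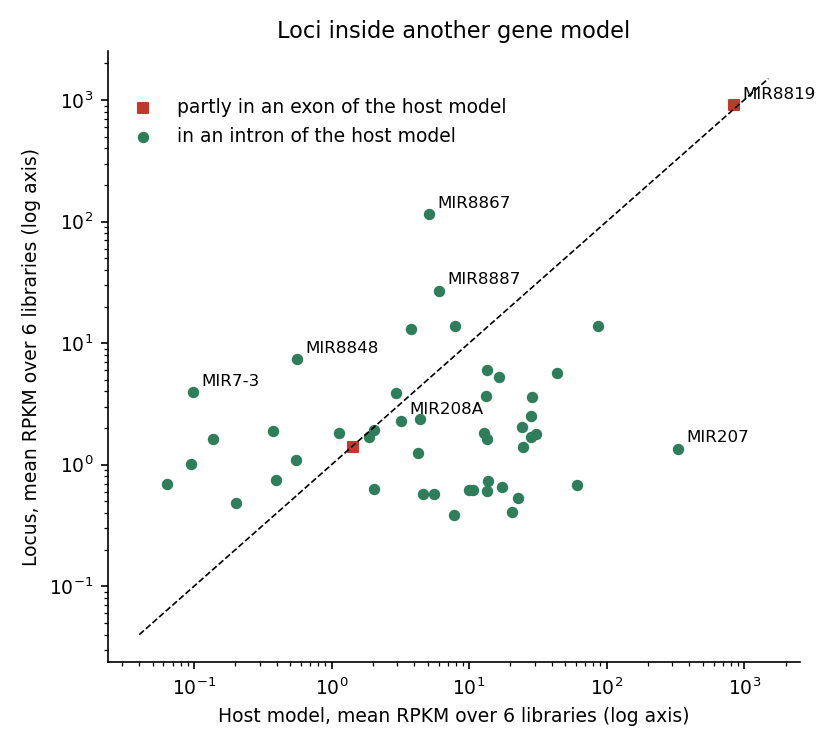
Mean level over the 6 hippocampal libraries of each of 48 loci (y) against the gene model that contains it on the same strand (x), both in RPKM on log axes; squares are loci partly in an exon of the host, circles loci in an intron, and the dashed line marks equal levels. MIR8819 lies near the line, 16 loci lie above it, and MIR7-3 and MIR8867 are the farthest above.

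Genes of the microRNA machinery were looked up in the same libraries: 27 were listed and 25 tested. Of these 4 were higher and 21 lower in pacing (58.9% of all models were lower), with none past the adjusted test by limma or edgeR, 4 at an unadjusted p under 0.05 with limma (background 9.15%) and 5 with edgeR (background 9.09%), and a median log2 difference of -0.09 (all models -0.04). The arms did not overlap for 1 higher (background 4.92%) and 8 lower genes (background 11.3%). TNRC6A, which links Argonaute to mRNA decay, had 8.42 ± 0.563 RPKM in pacing and 11.1 ± 1.43 in sham (limma adjusted p = 0.467). XPO5, the exporter of precursors, had 1.64 ± 0.0935 and 2.33 ± 0.469 RPKM (adjusted p = 0.521 by limma). DIS3L2, a nuclease that degrades tailed let-7 precursors, had 3.28 ± 0.0356 and 4.30 ± 0.459 RPKM (limma adjusted p = 0.467). TNRC6C had 8.02 ± 0.172 and 9.69 ± 0.396 RPKM (limma adjusted p = 0.486). AGO2 had 1.44 ± 0.0526 and 1.59 ± 0.0348 RPKM, also without overlap. ADARB1 was the 1 higher gene without overlap, at 8.16 ± 0.562 and 6.73 ± 0.847 RPKM (limma adjusted p = 0.570). AGO3 overlapped, at 2.38 ± 0.196 and 2.90 ± 0.718 RPKM. DROSHA, DGCR8, AGO1 and AGO4 were not listed under these symbols. DICER1, at 10.7 ± 0.416 and 11.7 ± 0.863 RPKM, overlapped between the arms.

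The exosome table measures mature microRNA in RPM, here of the listed reads, and its dog names were matched to the loci by number. It named 178 microRNAs, of which 99 matched a listed locus and 39 matched at least 1 of the 113, through 41 loci. The loci with an entry held 4.92% of the hippocampal reads of the 113, and their microRNAs held 44.8% of the named exosome reads. Over the 99 matched names, hippocampal locus reads and exosome RPM had a Spearman correlation of 0.05, and over the 39 it was 0.04. These are descriptions across microRNAs, of libraries of a different kind from a different tissue.

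The most abundant exosome microRNAs had few reads over their listed loci in hippocampus. Copies that are not listed could not be counted: miR-199 and miR-26a were each matched to 1 locus, MIR199-1 and MIR26A-2. The highest was miR-199, at 90401 RPM on average (64181 to 131103), whose locus had 5 hippocampal reads. The next were let-7a at 82469 RPM with 22 hippocampal reads and miR-125b at 63060 RPM with 34. Of the 10 most abundant, 5 had a locus among the 113 (let-7a, miR-125b, let-7b, let-7f and miR-29c); miR-26a, miR-21 and miR-148a had 1 to 3 reads over theirs, and miR-16 matched no listed locus. In the other direction, MIR9-2, with 2400 hippocampal reads, had its microRNA miR-9 at 5198 RPM in the exosomes, and MIR628, with 342 reads, had miR-628 at 20.3 RPM, which is 2 reads.

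**Figure D5:**
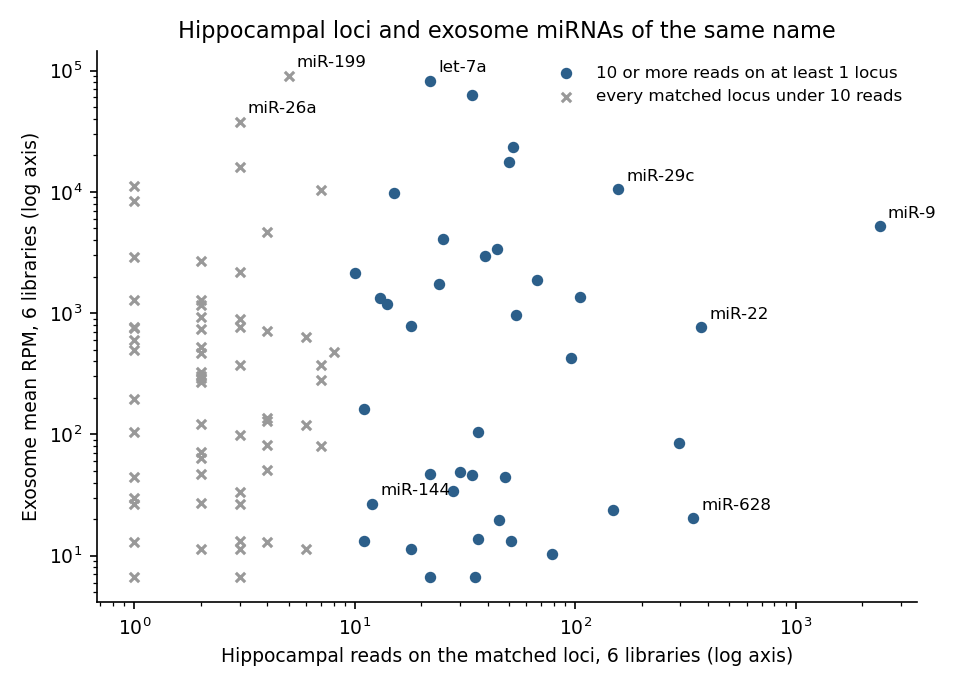
Mean exosome level in RPM (y, log axis) against hippocampal reads summed over the matched loci (x, log axis) for the 99 exosome microRNAs that matched a listed locus; circles are the 39 with a locus of 10 or more reads and crosses the other 60. The points show no common order, with miR-199 at 5 and miR-9 at 2401 hippocampal reads.

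Of the 39 exosome microRNAs with a locus among the 113, 37 were tested and none passed the adjusted test with limma, against 0.955% of all entries tested. At an unadjusted p under 0.05 there was none with limma (background 6.05%) and 1 with edgeR, miR-374b, with 4 reads in all (unadjusted p = 0.0217, adjusted p = 0.427 by edgeR). Of the 37, 18 were higher and 19 lower in pacing, and the median log2 difference was -0.08, against 0.10 over all entries tested. Over all entries tested the arms did not overlap for 4.14%. Among the 37 they did not overlap for 2 higher (background 2.87%), miR-146a and miR-374b, and for 1 lower (background 1.27%), miR-24.

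miR-146a, which dampens innate immune signalling, had 1069, 708 and 1365 RPM in pacing and 408, 596 and 548 RPM in sham. Every pacing library was above every sham library, with a limma log2 difference of 0.98 ± 0.66 (SE; adjusted p = 0.616). Its hippocampal locus MIR146A stood the other way with overlapping arms, at 0.991 ± 0.621 RPKM in pacing and 1.33 ± 0.392 in sham. miR-24 had 1151, 944 and 993 RPM in pacing and 1360, 2066 and 1567 RPM in sham (limma log2 difference -0.68 ± 0.55 SE, adjusted p = 0.616). miR-9 had 11596, 2596 and 1862 RPM in pacing and 2244, 5840 and 7049 RPM in sham, so the arms overlapped widely. let-7f, whose locus had higher levels in the pacing hippocampus, had 17842 ± 6107 RPM in pacing exosomes and 17680 ± 9081 in sham. miR-144 had 2 exosome reads, both in pacing libraries, where its hippocampal locus had none.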

How the data were processed

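Hippocampal mRNA and exosome microRNA were measured in 3 sham and 3 pacing samples each. Trimmomatic 0.36, STAR 2.5.3a and featureCounts were used, per the submitters' processing notes; annotation, strand setting and multi-mapping are not stated there. The deposited hippocampal values are RPKM, and multiplying by the deposited length returned whole reads (tolerance 0.001) for 100% of values. The deposited exosome values, in a file named for another unit, are RPM, since they are whole multiples of 1 step per library and take no length. Sequence names are those of CanFam3.1; the RefSeq table (UU_Cfam_GSD_1.0) was used for names only and held 111 of the 113 symbols.

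Differences were fitted with limma 3.58.1 (R 4.3.3, trend) on log2(value + 1), with a mean of at least 0.5 RPKM or 10 RPM, and Benjamini-Hochberg adjustment over all features at 0.05. edgeR 4.0.16 (quasi-likelihood, on recovered reads) and other scalings, filters, pseudocounts, array weights, a replicate block and each library left out were alternatives. On simulated hippocampal reads for 16038 genes, 82 of 82 tested 4-fold changes and 38 of 65 tested 2-fold changes were found. The simulation gave every gene the same dispersion (spread between libraries) and changed no gene with very few expected reads. It therefore does not show what could be found in loci of few reads or of wide spread. The log2(value + 1) scale understates changes of low loci. The text names the 12 loci with most reads, the 6 with the smallest p in each direction, those at the threshold, list members and matches of the top exosome microRNAs. Members and lists were chosen with earlier results of these data known. Some neighbouring genes are not reported here.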

Additional observations from a re-analysis of the deposited data

How the results depend on the processing

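With other settings, the count of all hippocampal gene models past the threshold (4) became 7 without a filter, 23 with array weights, 7 with the replicate block, and 3 to 95 with 1 library left out (95 without sham replicate 1, 9 without sham replicate 2). The count of microRNA loci (0) became 1 without a filter (MIR8793-2), 1 with array weights (MIR144, log2 difference -1.31, adjusted p = 0.0402 by limma) and 0 to 2 with 1 library left out. Those 2, without sham replicate 1, were MIR144 (-1.52, limma adjusted p = 0.00504) and MIR8818 (-1.46, limma adjusted p = 0.0144). Over all its alternatives the adjusted p ran from 0.00504 to 0.913 for MIR144 and from 0.0144 to 0.975 for MIR8818. MIR144, MIR8818 and MIR8793-2 had reads in sham only and reached 10 reads through that arm alone. Low pacing values were thus built into their choice, and their calls are no evidence of a difference. The count of exosome entries (3) became 0 when scaled to named microRNAs, 0 with edgeR, and 2 to 7 with 1 library left out (6 without pacing replicate 1, 5 without sham replicate 2, 7 without sham replicate 3). Exosome microRNAs of the loci, host models and machinery genes stayed at 0 calls under every alternative run. The cause of these changes was not tested.

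The sign reversed under at least 1 setting for 18 of 55 loci named and tested, none of them called. MIR8819 was -0.031 with quantile scaling, -0.013 with array weights and -0.086 to 0.20 with 1 library left out; MIR8858 was 0.11 with array weights and -1.36 to 0.43 with 1 library left out. MIR8867 was -0.033 with array weights and -0.078 to 0.20 with 1 library left out. MIR8809 was 0.051 with median-of-ratios scaling, 0.049 with edgeR, and -0.12 to 0.11 with 1 library left out; MIR9-2 was 0.040, 0.018 and 0.028 with median-of-ratios scaling, array weights and edgeR, and -0.064 to 0.021 with 1 library left out. MIR568 was 0.095 with array weights and -0.23 to 0.16 with 1 library left out. MIR219-2 was -0.038 with edgeR and -0.49 to 0.71 with 1 library left out. The other 11 reversed only with 1 library left out, over ranges of -0.22 to 0.26 for MIR124-1, -0.052 to 0.83 for MIR138A, -0.47 to 0.12 for MIR137, -0.14 to 1.04 for MIRLET7B, -0.88 to 0.15 for MIRLET7G, -0.25 to 0.20 for MIR874, -0.22 to 0.29 for MIR125B-2, -0.32 to 0.15 for MIR29C-1, -0.30 to 0.66 for MIR29C-2, -0.18 to 0.015 for MIR8811 and -0.10 to 0.31 for MIR628. Median-of-ratios scaling moved the median of all models from -0.04 to 0.01 and that of the loci from -0.13 to -0.08.

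The labels do not say whether equal replicate numbers pair the samples. The deviations of same-numbered samples correlated at -0.11, 0.06 and -0.01 in hippocampus and 0.00, 0.00 and 0.05 in exosomes. With 3 samples per arm such values cannot exclude a pairing. With the replicate block no microRNA locus and no exosome microRNA of a locus was called. Most loci rest on under 100 reads over 6 libraries, which limits what could be detected; 3 libraries per arm limit it further.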
